A study of Homo sapiens with 12 samples.

Results

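The genes described here are complement components and regulators, chosen by name: the initiator proteases C1R and C1S, the components C3 and CFB, the soluble regulators CFI and SERPING1, and the membrane regulators CD46, CD55 and CD59. The choice was made with earlier results of these data known. Of these 9 genes, 8 have a row among the 35741 genes of the count table and 7 had enough reads to be tested. SERPING1 fell under the filter on low counts, and CFB is not analysed here.

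The study sequenced polyadenylated RNA of U87 cells, an established human glioblastoma line, in 12 libraries that form 4 groups of 3. It asked how the transcriptome of untreated cells compares with that of cells in which miR-10b, miR-21 or both were targeted. The agents were sgPNAs, synthetic peptide nucleic acids that pair with the seed of a microRNA, carried by nanoparticles that the labels call BNP. PNA-10b cells received 150 nM sgPNA-10b, PNA-21 cells 150 nM sgPNA-21, and PNA-10b+21 cells 150 nM of each, all for 72 h. Control cells were untreated and are labelled wild type, and no time in culture is given for them. All groups share the same line, medium and plate format. The 3 treated groups also share the nanoparticles, and the combined group carries both doses of sgPNA. No arm with nanoparticles alone or with an unrelated PNA is described, so an effect of the carrier and an effect of an sgPNA cannot be told apart in a comparison with Control. The labels do not say whether the replicates were separate cultures, so the p-values measure only the spread between these libraries. Mature microRNAs were not measured, so the knockdown named in the labels was not checked.

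Complement is a cascade of plasma and surface proteins that marks particles and cells for removal. In the classical route, C1r and C1s are the serine proteases of the C1 complex, which cleave C4 and C2 once C1q has bound. All routes meet at C3, whose cleavage products coat surfaces, and factor B, the product of CFB, supplies the protease of the alternative route. Host cells restrain the cascade with soluble regulators and with membrane proteins. The liver makes most plasma complement, and glial and glioma cells are also known to transcribe complement genes.

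The sequence below is the strand that sgPNA-21 was designed against, shown because the seed decides which transcripts miR-21 can pair with. It is the mature miR-21-5p of RefSeq (GRCh38.p14), 22 bases at chr17:59841273-59841294 on the plus strand, with the seed, bases 2 to 8, in capitals.

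hsa-miR-21-5p: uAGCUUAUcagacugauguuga

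In DNA letters the matches to this seed are ATAAGCT (7mer-m8) and TAAGCTA (7mer-A1), which share 6 letters. The longest annotated 3′ UTR of each of the 8 measured genes was searched on the transcript strand. None of the 8 held either match, in UTRs of 199 bases in CFI to 7116 bases in CD59. Of 16679 genes with an annotated 3′ UTR, 9.35% held ATAAGCT and 13.7% held at least one of the matches. The absence of a match says only that these letters are not in these annotated UTRs.

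RefSeq (GRCh38.p14) promoter windows, 250 bases before to 50 bases after a transcript start, are given for one gene that was lower and one that was higher in every treated group. Of the 9 genes, C1R, CFB, CFI, CD46, CD55 and CD59 have windows in the table used. C1R has 2 windows there, of which the one nearer the annotated gene start is printed. Capitals mark the half-site of the cAMP response element (TGACG) and the C/EBP motif (TTGCNNAA), searched on both strands. The printed C1R window lies at chr12:7092396-7092695 on the minus strand and the CD55 window at chr1:207321428-207321727 on the plus strand.

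C1R promoter: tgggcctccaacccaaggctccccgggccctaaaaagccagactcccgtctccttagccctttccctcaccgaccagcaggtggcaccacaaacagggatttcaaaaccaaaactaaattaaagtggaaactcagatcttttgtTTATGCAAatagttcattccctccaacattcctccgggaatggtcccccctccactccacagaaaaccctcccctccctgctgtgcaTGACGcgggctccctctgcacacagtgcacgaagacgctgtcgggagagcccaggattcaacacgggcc

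CD55 promoter: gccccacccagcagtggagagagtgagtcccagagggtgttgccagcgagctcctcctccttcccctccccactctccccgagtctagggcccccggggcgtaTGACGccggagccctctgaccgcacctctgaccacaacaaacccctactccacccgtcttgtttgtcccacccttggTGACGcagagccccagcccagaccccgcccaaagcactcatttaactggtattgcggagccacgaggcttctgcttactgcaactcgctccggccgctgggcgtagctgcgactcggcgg

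The printed C1R window held TGACG at -19 and a C/EBP match on the opposite strand at -106, both counted to the first base of the match from the transcript start. The CD55 window held TGACG at -147 and -70. Of 35116 promoter windows, 24.6% held TGACG and 10.5% held the C/EBP motif. The interferon-related motifs GAS (TTCNNNGAA, in 7.66% of windows) and the ISRE core (in 3.57%), and AP-1 (TGANTCA, in 7.71%), had no match in either printed window. The other C1R window, chr12:7091844-7092143 on the minus strand, held a GAS match at -86 and a C/EBP match at -167, and no TGACG. A match is a string of letters, and no factor binding was measured.

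The libraries held between 14026933 and 16969787 counts in PNA-10b, between 14634738 and 18305820 in PNA-21, between 14102709 and 17098686 in PNA-10b+21, and between 12846676 and 17053150 in Control. U87 cells had high levels of most of the mesenchymal markers. The highest, FN1, averaged 9624 CPM in PNA-10b, 8052 in PNA-21, 8757 in PNA-10b+21 and 13038 in Control. NES was the exception, with means of 12.3 CPM in PNA-10b, 10.96 in PNA-21, 13.1 in PNA-10b+21 and 15.8 in Control. Of the astrocyte markers, SLC1A3 averaged 61.9 CPM in PNA-10b, 48.2 in PNA-21, 47.5 in PNA-10b+21 and 91.6 in Control, while GFAP and S100B had at most 4.89 and 0.268 CPM in any library. Levels are in CPM, the read count of a gene scaled to a common library size, here after the trimmed mean of M values (TMM) adjustment.

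In Control cells, C3 was the most abundant of the 8 measured members when read counts were set against exon length. C3 reached 62.3 ± 1.86 CPM per kb of exon in PNA-10b, 58.8 ± 1.95 in PNA-21, 58.1 ± 4.50 in PNA-10b+21 and 79.5 ± 3.92 in Control (SD, n = 3 each). In Control it exceeded 97.2% of the 15569 tested genes with a known exon length. Among the members, CD59 followed with 60.0 ± 1.46 CPM per kb in Control, then C1S with 35.1 ± 2.95, C1R with 31.0 ± 1.87 and CD46 with 28.99 ± 0.138 (SD, n = 3). The gap between C1S and C1R was smaller than the sum of their SDs, and that between C1R and CD46 was close to it, so neither order is set clearly beyond the spread. CD55 was lower, at 4.98 ± 0.252 CPM per kb in Control, above 51.8% of genes. CFI had 1.02 ± 0.0813 CPM per kb in Control and exceeded only 21.7% of genes. SERPING1, which encodes the inhibitor of C1r and C1s, was near the limit of detection in every group.

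**Figure D1:**
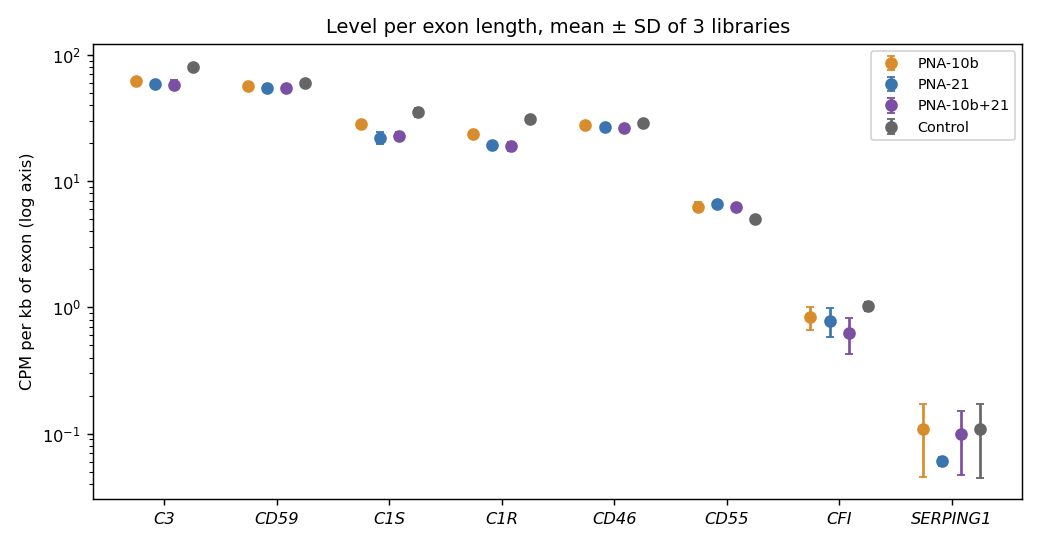
Mean CPM per kb of exon on a log axis for 8 complement genes, with points for the 4 groups and bars for the SD of 3 libraries. C3 and CD59 were highest, and SERPING1 lowest at 0.108 ± 0.0641 CPM per kb in Control.

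Of the 7 tested members, C1R, C1S and C3 were called lower in every treated group, and CD55 was the only one called higher. In PNA-10b against Control, 3 of the 7 tested members fell (C1R, C1S and C3) and 1 rose (CD55), while 3.74% of all 15715 tested genes fell and 2.75% rose. In PNA-21 against Control, 4 fell, with CD59 added, and 1 rose, beside 14.6% of all genes that fell and 15.2% that rose. In PNA-10b+21 against Control, 6 fell and 1 rose, beside 13.4% and 13.6% of all genes. The median log2 fold change of the 7 members was -0.28 in PNA-10b cells, -0.37 in PNA-21 and -0.45 in PNA-10b+21, while the median of all tested genes was within 0.01 of zero in each comparison. A gene was called changed at an adjusted p under 0.05 by edgeR's quasi-likelihood test with Benjamini-Hochberg adjustment over all tested genes. The 3 comparisons share the Control libraries, so their counts are not independent. As the members were chosen with earlier results of these data known, the shares beside them do not test whether complement genes changed more than others. In whole-culture RNA, fewer cells that transcribe a gene and less of its RNA per cell cannot be told apart.

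The count moved with single libraries. In PNA-10b against Control it dropped to 2 of 7 without PNA-10b replicate 2. In PNA-10b+21 against Control it dropped to 4 of 7 without PNA-10b+21 replicate 1, without PNA-10b+21 replicate 2 or without Control replicate 1. C1R, C3 and CD55 in PNA-21 and in PNA-10b+21, C1S in the same 2 groups, and C1R and C3 in PNA-10b kept their calls in every such fit.

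**Figure D2:**
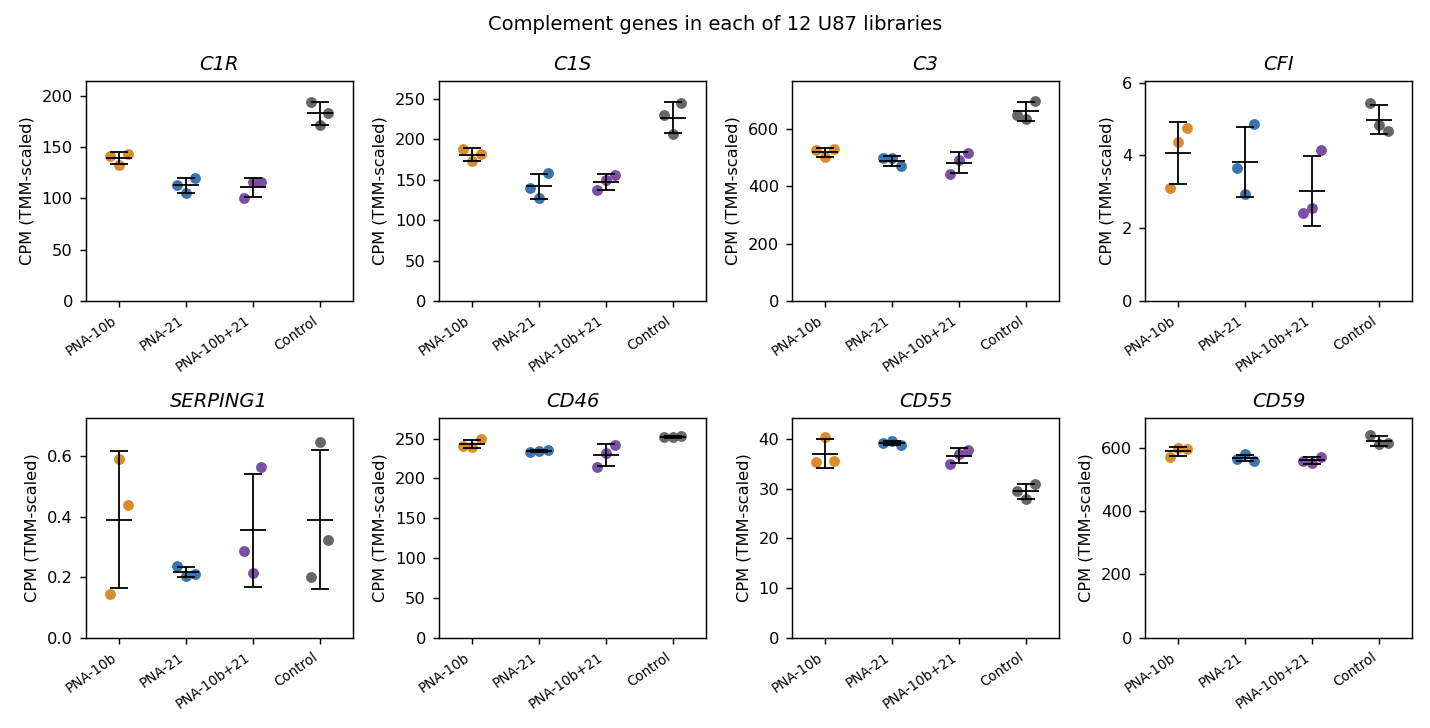
TMM-scaled CPM of 8 complement genes in each of the 12 libraries, with 1 point per library and the mean ± SD of 3 libraries in black. C1R, C1S, C3, CD46 and CD59 lay lower, and CD55 higher, in all 9 treated libraries than in the 3 Control libraries. For CD46 and CD59 this depended on the TMM scaling, as PNA-10b and Control libraries overlapped without it. The share of all tested genes that separated in this way was not computed.

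C1R and C1S, the 2 proteases of the C1 complex, fell furthest among the abundant members in PNA-21 and PNA-10b+21. In PNA-10b their log2 fold changes, -0.39 and -0.33, lay on either side of that of C3 (-0.35). C1R (ENSG00000159403, hg38 chr12:7080199-7092607, minus strand) had 141, 133 and 143 CPM in PNA-10b, 113, 105 and 119.6 CPM in PNA-21, 99.99, 116 and 116 CPM in PNA-10b+21, and 193, 171 and 183 CPM in Control. All 9 treated libraries lay below the Control libraries, and the PNA-21 and PNA-10b+21 libraries also lay below those of PNA-10b. The log2 fold change of C1R against Control was -0.39 ± 0.06 (SE) in PNA-10b (adjusted p = 0.000741), -0.70 ± 0.06 in PNA-21 (adjusted p = 1.32e-07) and -0.72 ± 0.06 in PNA-10b+21 (adjusted p = 7.06e-08, edgeR quasi-likelihood test with Benjamini-Hochberg adjustment). C1R thus stood at 0.762, 0.618 and 0.606 of its Control level in the same order.

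C1S (ENSG00000182326, hg38 chr12:6988259-7071032, plus strand) is encoded 9166 bases from C1R on the opposite strand. It had 188, 173 and 182 CPM in PNA-10b, 139.6, 128 and 159 CPM in PNA-21, 137, 150.0 and 156 CPM in PNA-10b+21, and 229.6, 207 and 245 CPM in Control. Here too the treated libraries lay below all Control libraries. The log2 fold change against Control was -0.33 ± 0.07 (SE) in PNA-10b (adjusted p = 0.00819), -0.67 ± 0.07 in PNA-21 (adjusted p = 9.34e-07) and -0.62 ± 0.07 in PNA-10b+21 (adjusted p = 2.37e-06) by edgeR. In PNA-10b the call was lost without PNA-10b replicate 2 (log2 fold change -0.29, adjusted p = 0.0702) and without Control replicate 3 (-0.27, adjusted p = 0.0627). The ratio of C1S to C1R counts stayed in a narrow range, from 1.27 to 1.33 in PNA-10b cells, 1.22 to 1.33 in PNA-21, 1.29 to 1.37 in PNA-10b+21 and 1.19 to 1.34 in Control.

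Some exon sequence of these genes is shared with neighbours on the same strand. Of the exon bases of C1R, 672 (11.4%) also belong to C1RL, and 229 exon bases of C1S (3.54%) belong to EMG1. How the counting treated reads in shared exons is not given in the sources used here. C1RL itself averaged 40.1 ± 2.36 CPM in PNA-10b, 39.8 ± 5.71 in PNA-21, 40.5 ± 3.61 in PNA-10b+21 and 54.6 ± 2.21 in Control (SD, n = 3 each).

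C3 (ENSG00000125730, hg38 chr19:6677704-6730562, minus strand), where the routes of activation meet, fell in all 3 treated groups. It had 526, 501 and 529.9 CPM in PNA-10b, 498, 499 and 470.5 CPM in PNA-21, 443, 492 and 517 CPM in PNA-10b+21, and 652, 636 and 699 CPM in Control. The highest treated library was thus more than 100 CPM under the lowest Control library. The log2 fold change against Control was -0.35 ± 0.06 (SE) in PNA-10b (adjusted p = 0.000741), -0.44 ± 0.06 in PNA-21 (adjusted p = 9.42e-06) and -0.45 ± 0.06 in PNA-10b+21 (adjusted p = 5.72e-06) by edgeR.

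CFI encodes factor I, the plasma protease that degrades activated C3 and C4 with the help of cofactors. CFI (ENSG00000205403, hg38 chr4:109740694-109802179, minus strand) was rare, with 3.12, 4.36 and 4.75 CPM in PNA-10b, 3.66, 2.94 and 4.86 CPM in PNA-21, 2.41, 2.55 and 4.14 CPM in PNA-10b+21, and 5.43, 4.83 and 4.68 CPM in Control. The combined group lay wholly below Control, while the single treatments overlapped it. CFI fell by 0.72 ± 0.21 (SE) on the log2 scale in PNA-10b+21 (adjusted p = 0.0162, edgeR). The change was not called in PNA-10b, at -0.28 with a 95% interval of -0.71 to 0.15, or in PNA-21, at -0.37 with an interval of -0.79 to 0.06.

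The CFI values rest on 193 counts in PNA-10b, 197 in PNA-21, 144 in PNA-10b+21 and 221 in Control. The call in PNA-10b+21 was lost without PNA-10b+21 replicate 1 (-0.56, adjusted p = 0.107), without PNA-10b+21 replicate 2 (-0.62, adjusted p = 0.0717) and without Control replicate 1 (-0.65, adjusted p = 0.0676). Of the exon bases of CFI, 1562 (32%) are shared with the overlapping gene AC126283.2 on the same strand, for which the count table has no row.

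SERPING1 (ENSG00000149131, hg38 chr11:57597387-57614853, plus strand) had 2, 10 and 7 reads in PNA-10b, 4, 3 and 4 in PNA-21, 5, 3 and 9 in PNA-10b+21, and 3, 11 and 4 in Control. All groups overlapped, and the sums of 19, 11, 17 and 18 reads were too low for a test. A difference in SERPING1 was not detectable at this depth.

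Among the membrane regulators, CD55 moved against the rest. CD55, or decay-accelerating factor, is a GPI-anchored protein that dissociates the C3 convertases on the cell's own surface. CD55 (ENSG00000196352, hg38 chr1:207321376-207386804, plus strand) had 35.3, 40.4 and 35.5 CPM in PNA-10b, 39.1, 39.7 and 38.8 CPM in PNA-21, 34.9, 37.0 and 37.8 CPM in PNA-10b+21, and 29.4, 27.9 and 30.9 CPM in Control. Every treated library lay above every Control library. CD55 rose by 0.34 ± 0.07 (SE) on the log2 scale in PNA-10b (adjusted p = 0.00424), by 0.42 ± 0.07 in PNA-21 (adjusted p = 9.86e-05) and by 0.32 ± 0.07 in PNA-10b+21 (adjusted p = 0.00146, edgeR). Without PNA-10b replicate 2, the library with the highest CD55 level, the change in PNA-10b was 0.27 (adjusted p = 0.0558) and was not called.

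CD46, the membrane cofactor with which factor I degrades C3b, lies near CD55 on chromosome 1 (ENSG00000117335, hg38 chr1:207752057-207795513, plus strand). It had 241, 239.6 and 249.6 CPM in PNA-10b, 233, 234 and 235 CPM in PNA-21, 215, 232 and 242 CPM in PNA-10b+21, and 252, 251 and 254 CPM in Control. With TMM scaling the groups did not overlap with Control, but the differences were small. Without TMM, CD46 averaged 242 CPM in PNA-10b and 247 in Control, and libraries of these groups overlapped. The log2 fold change against Control was -0.05 in PNA-10b (95% interval -0.15 to 0.05) and -0.11 in PNA-21 (adjusted p = 0.0960), neither of them called by edgeR. In PNA-10b+21 CD46 fell by 0.14 ± 0.05 (SE) on the log2 scale (adjusted p = 0.0396, edgeR).

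The CD46 call in PNA-10b+21 was at the edge of the threshold. It was lost in 7 of the 12 fits that left out a library: without PNA-10b replicate 2 (-0.14, adjusted p = 0.0529), PNA-21 replicate 2 (-0.14, adjusted p = 0.0504), PNA-10b+21 replicate 1 (-0.09, adjusted p = 0.233), PNA-10b+21 replicate 2 (-0.14, adjusted p = 0.0749), Control replicate 1 (-0.14, adjusted p = 0.0788), Control replicate 2 (-0.14, adjusted p = 0.0636) or Control replicate 3 (-0.13, adjusted p = 0.0849). It was also lost with no filter on low counts (-0.13, adjusted p = 0.132) and with only the 2 groups in the fit (-0.13, adjusted p = 0.0736). In PNA-21 a call was gained with upper-quartile scaling (-0.14, adjusted p = 0.0401).

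CD59, a GPI-anchored inhibitor of the membrane attack complex, was the second most abundant of the members per kb. CD59 (ENSG00000085063, hg38 chr11:33703010-33736491, minus strand) had 571, 598 and 597 CPM in PNA-10b, 565, 579.9 and 559 CPM in PNA-21, 558, 552 and 571 CPM in PNA-10b+21, and 639, 612 and 614 CPM in Control. With TMM scaling all treated libraries lay below the Control libraries, by at most 0.15 on the log2 scale in the group estimates. Without TMM, CD59 averaged 586 CPM in PNA-10b and 608 in Control, and libraries of these groups overlapped. The change in PNA-10b was -0.08 with a 95% interval of -0.17 to 0.02 and was not called. Of its exon bases, 629 (6.07%) are shared with AL049629.2 on the same strand. CD59 fell by 0.13 ± 0.05 (SE) on the log2 scale in PNA-21 (adjusted p = 0.0334) and by 0.15 ± 0.05 in PNA-10b+21 (adjusted p = 0.0170, edgeR).

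The CD59 calls also moved with the fit. In PNA-21 the call was lost without PNA-21 replicate 1 (-0.13, adjusted p = 0.0870), PNA-21 replicate 3 (-0.12, adjusted p = 0.0699), Control replicate 1 (-0.11, adjusted p = 0.107) or Control replicate 3 (-0.14, adjusted p = 0.0507), with no filter (-0.12, adjusted p = 0.160) and with only the 2 groups (-0.13, adjusted p = 0.0907). In PNA-10b+21 it was lost without PNA-10b+21 replicate 1 (-0.15, adjusted p = 0.0584), PNA-10b+21 replicate 2 (-0.14, adjusted p = 0.0680) or Control replicate 1 (-0.13, adjusted p = 0.0680), and with no filter (-0.14, adjusted p = 0.0612).

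**Figure D3:**
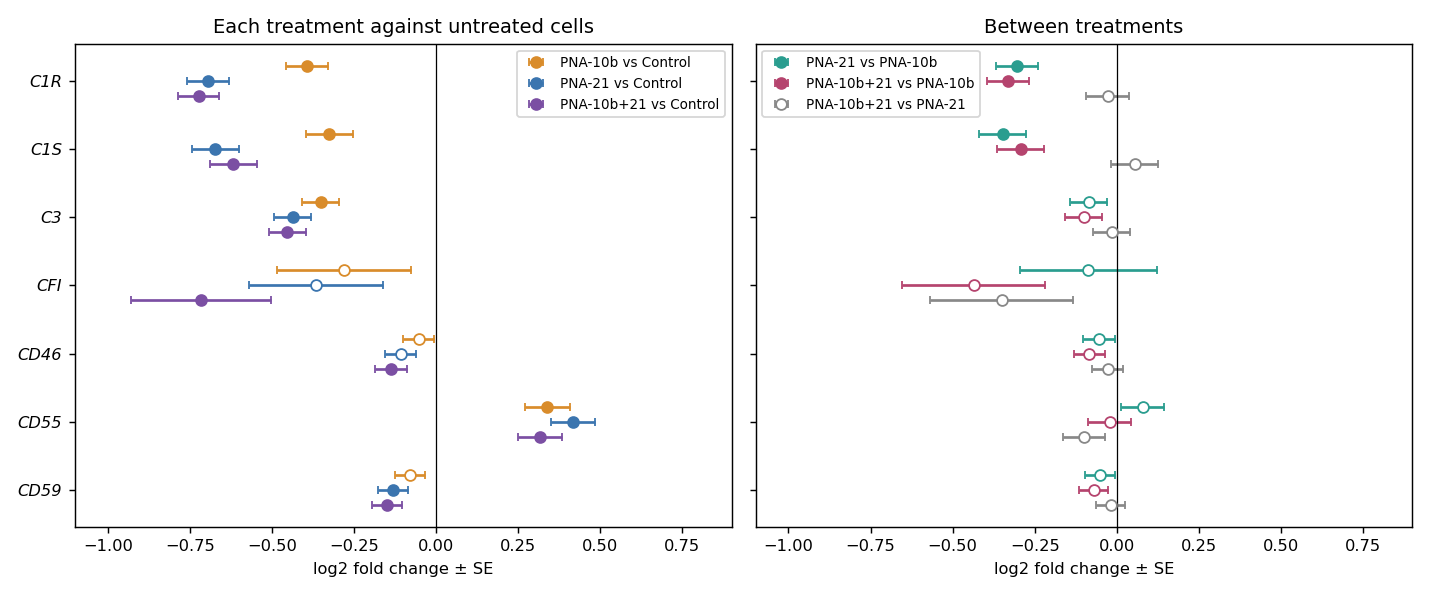
Log2 fold change ± SE of 7 complement genes for each treatment against untreated cells (left) and between treatments (right), with filled points where the adjusted p was under 0.05 and open points elsewhere. C1R, C1S and C3 lay left of zero and CD55 right of zero in all 3 comparisons with Control. Between treatments, C1R and C1S alone of the 7 had filled points, in the 2 comparisons with PNA-10b.

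The treated groups all received nanoparticles, and the labels do not say whether the combined group received more of them. In PNA-21 against PNA-10b, 2 of the 7 members were called lower and none higher, beside 3.88% of all tested genes called lower. These were C1R, at -0.30 ± 0.06 (SE, log2, adjusted p = 0.00570), and C1S, at -0.35 ± 0.07 (adjusted p = 0.00488, edgeR). C3 differed by -0.09 with a 95% interval of -0.20 to 0.03, and CD55 by 0.08 with an interval of -0.06 to 0.21, neither called.

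In PNA-10b+21 against PNA-10b, the same genes C1R and C1S were the 2 of 7 members called lower, beside 5.1% of all tested genes. C1R differed by -0.33 ± 0.06 (SE, log2, adjusted p = 0.00226) and C1S by -0.29 ± 0.07 (adjusted p = 0.0123, edgeR). The C1S call was lost without PNA-10b+21 replicate 1 (-0.24, adjusted p = 0.0988), which left 1 member called. CFI, at -0.44 with a 95% interval of -0.89 to 0.02, became called without PNA-10b+21 replicate 3 (-0.73, adjusted p = 0.0437). C3 differed by -0.10 with an interval of -0.22 to 0.02 and CD55 by -0.02 with an interval of -0.16 to 0.11.

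In PNA-10b+21 against PNA-21, no complement gene was called. The share of all genes called was 0% as well: edgeR called 0 genes and DESeq2 called 0, while 1354 genes, with 0 members among them, had an unadjusted edgeR p under 0.05. The smallest adjusted p of a member was 0.714, for CFI. The 95% interval of the log2 difference was -0.16 to 0.11 for C1R, -0.10 to 0.21 for C1S, -0.13 to 0.10 for C3 and -0.24 to 0.03 for CD55. For C1R these bounds exclude a further change of the size seen between PNA-21 and PNA-10b. CD55 differed by -0.10 and was not called.

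The design allows a test of whether the change under both sgPNAs differs from the sum of the single changes on the log2 scale. For 4 of the 7 members it did: 3 interactions were positive and 1 negative, beside 1.48% and 1.64% of all tested genes. The C1R change was -0.72 in PNA-10b+21, against -1.09 for the sum of the single changes, a difference of 0.36 ± 0.09 (SE, adjusted p = 0.0352, edgeR). The C1S change was -0.62 against a sum of -0.998, a difference of 0.38 ± 0.10 (adjusted p = 0.0448). The C3 change was -0.45 against a sum of -0.79, a difference of 0.33 ± 0.08 (adjusted p = 0.0302). The CD55 change was 0.32 against a sum of 0.75, a difference of -0.44 ± 0.09 (adjusted p = 0.0169). In each of these 4 genes the combined change was smaller than the sum.

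For CFI, CD46 and CD59 no such difference was called. The CFI change was -0.72 against a sum of -0.65, with a 95% interval of the difference from -0.69 to 0.55. The interval was -0.12 to 0.17 for CD46 and -0.07 to 0.19 for CD59. An effect of the nanoparticles that all treated groups share would enter the sum of single changes for both groups but the combined group once, so it cannot be told apart from the interaction.

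**Figure D4:**
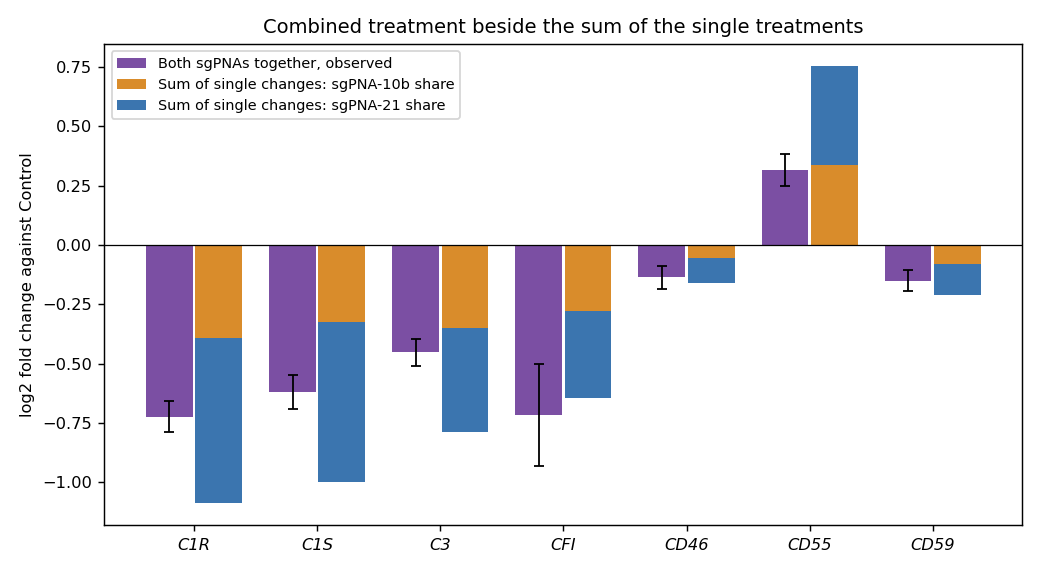
Log2 fold change against Control of 7 complement genes for PNA-10b+21 (purple bar, ± SE) beside the stacked sum of the single changes (orange for PNA-10b, blue for PNA-21). The purple bar was shorter than the stack for C1R, C1S, C3 and CD55, for example -0.72 against -1.09 for C1R.

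The interaction calls depended on single libraries. Without PNA-10b replicate 2, PNA-21 replicate 2 or Control replicate 1, 0 of the 7 members were called. Without PNA-10b+21 replicate 2, PNA-10b+21 replicate 3 or Control replicate 3, 1 was called, and without PNA-21 replicate 1, 2 were called. C1S also lost its call without PNA-10b replicate 3 (0.38, adjusted p = 0.0775), and C3 without PNA-21 replicate 3 (0.31, adjusted p = 0.0533). Over all alternatives the interaction kept its sign, from 0.32 to 0.43 for C1R, 0.31 to 0.47 for C1S, 0.28 to 0.39 for C3 and -0.47 to -0.37 for CD55. The highest adjusted p was 0.123 for C1R, 0.147 for C1S, 0.111 for C3 and 0.0747 for CD55.

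The genes whose pattern over the 12 libraries lay nearest to that of 3 members were found by the root mean square difference of centred log2 CPM, among 12542 candidates. For C1R these were PAMR1 (0.0654), BMP1 (0.0655) and SPOCK1 (0.0684), where C1R itself varied by 0.302 around its mean. For C1S they were FAT4 (0.0709), DPP4 (0.0727) and C14orf132 (0.0737), against its own 0.285. C1R and C1S were 0.0659 apart, and 2 of the candidates lay closer to C1R than C1S did. For CFI the nearest were PCAT6 (0.169), AL096865.1 (0.171) and SMAD7 (0.174), against its own 0.368, a looser likeness in a gene with few counts.

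Of 51 further complement genes listed, 37 had a row and 13 were tested. Their calls against Control were 1 higher and 3 lower in PNA-10b, 2 higher and 5 lower in PNA-21, and 2 higher and 5 lower in PNA-10b+21. Of all tested genes, 2.75% rose and 3.74% fell in PNA-10b, 15.2% and 14.6% in PNA-21, and 13.6% and 13.4% in PNA-10b+21, so 2 of 13 higher is near the background of the groups with sgPNA-21. Their median log2 fold change was -0.10, -0.19 and -0.12 in the same order, beside all-gene medians within 0.01 of zero. The genes under the filter had at most 12 reads in any library, among them C4A, C4B, MASP1, C6, C7, C8A, C9, CR2 and ITGAM. C5, which starts the terminal route, was tested and not called, at 0.07 in PNA-10b cells, 0.01 in PNA-21 cells and 0.08 in PNA-10b+21 on the log2 scale.

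C5AR1 and C5AR2, the receptors of the anaphylatoxin C5a, fell in all 3 treated groups. C5AR1 averaged 4.31 ± 0.617 CPM in PNA-10b, 4.04 ± 0.290 in PNA-21, 4.36 ± 0.548 in PNA-10b+21 and 7.27 ± 1.07 in Control (SD, n = 3 each). Its log2 fold change was -0.76 ± 0.15 (SE) in PNA-10b cells, -0.85 ± 0.15 in PNA-21 and -0.72 ± 0.15 in PNA-10b+21. C5AR2 averaged 2.57 ± 0.332 CPM in PNA-10b, 2.35 ± 0.217 in PNA-21, 2.41 ± 0.130 in PNA-10b+21 and 5.26 ± 0.849 in Control. Its log2 fold change was -1.02 ± 0.17, -1.15 ± 0.17 and -1.11 ± 0.17 in that order.

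C1RL, a protease related to C1r, fell by 0.44 ± 0.08 (SE) on the log2 scale in PNA-10b cells, by 0.45 ± 0.08 in PNA-21 cells and by 0.43 ± 0.08 in PNA-10b+21 cells.

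Some genes changed in the groups with sgPNA-21 and were not called in PNA-10b. In PNA-21 against PNA-10b, however, 0 of the 13 further tested complement genes were called, beside 3.88% of all tested genes called lower. A difference between these single treatments was thus not shown for them. MASP2, a protease of the lectin route, was at -0.31 ± 0.21 (SE, log2) in PNA-10b, not called, and fell by 0.80 ± 0.22 in PNA-21 and by 0.76 ± 0.22 in PNA-10b+21. CLU, or clusterin, an inhibitor of the terminal complex, was at -0.10 in PNA-10b, not called, and fell by 0.18 ± 0.05 in PNA-21 and by 0.14 ± 0.05 in PNA-10b+21. C1QBP, a mitochondrial protein that binds the globular heads of C1q, was at 0.07 in PNA-10b, not called, and rose by 0.21 ± 0.05 in PNA-21 and by 0.30 ± 0.05 in PNA-10b+21. Between PNA-10b+21 and PNA-10b, of these 3 only C1QBP was called (0.23), and that call was lost without PNA-10b replicate 3 (0.19, adjusted p = 0.0597), PNA-10b+21 replicate 1 (0.22, adjusted p = 0.0572) or PNA-10b+21 replicate 2 (0.20, adjusted p = 0.0572, edgeR).

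ITGAX, the alpha chain of an integrin receptor for fragments of C3, rose by 0.42 ± 0.12 (SE) on the log2 scale in PNA-10b (adjusted p = 0.0436), by 0.62 ± 0.12 in PNA-21 (adjusted p = 0.000621) and by 0.82 ± 0.12 in PNA-10b+21 (adjusted p = 3.10e-05, edgeR). Its partner chain ITGB2 had at most 7 reads in any library. The ITGAX call in PNA-10b was lost with upper-quartile scaling, DESeq2, only the 2 groups or a replicate block (adjusted p = 0.0528), and without any 1 of PNA-10b replicates 1 to 3, PNA-21 replicates 1 to 3 and Control replicates 1 and 3, with changes of 0.31 to 0.45. The MASP2 call in PNA-10b+21 was lost without PNA-10b+21 replicate 1 (-0.61, adjusted p = 0.0840). The CLU call in PNA-21 was lost without Control replicate 1 (-0.14, adjusted p = 0.0537). In PNA-10b+21 the CLU call was lost without PNA-10b+21 replicate 1 or 3 or Control replicate 1, with no filter and with only the 2 groups (-0.14 to -0.11).

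**Figure D5:**
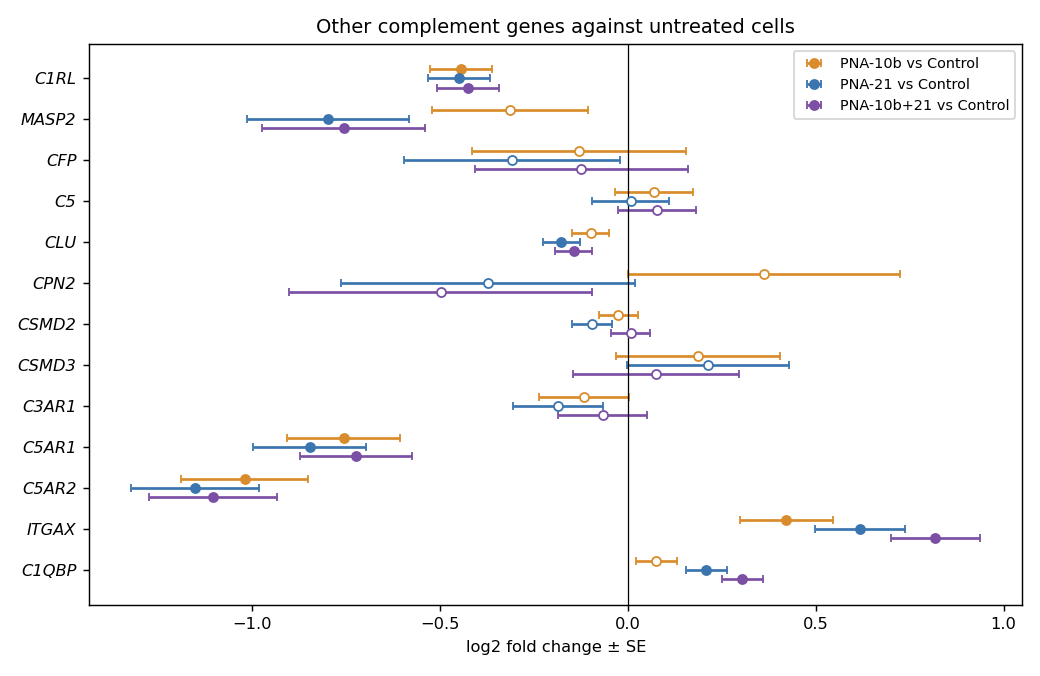
Log2 fold change ± SE against untreated cells for 13 tested complement genes outside the 9 named ones, in PNA-10b (orange), PNA-21 (blue) and PNA-10b+21 (purple), with filled points at an adjusted p under 0.05. C1RL, C5AR1 and C5AR2 lay left of zero in all 3 groups, with C5AR2 at -1.02, -1.15 and -1.11, and ITGAX lay right of zero.

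Interleukin-6 and interleukin-1 family signals and interferons are known inducers of complement genes. Of 26 genes listed for this signalling, 25 were tested, and 3 rose and 2 fell in PNA-10b, 8 rose and 7 fell in PNA-21, and 5 rose and 9 fell in PNA-10b+21. All tested genes rose in 2.75% and fell in 3.74% of cases in PNA-10b, in 15.2% and 14.6% in PNA-21, and in 13.6% and 13.4% in PNA-10b+21. IL6 fell by 0.51 ± 0.10 (SE) on the log2 scale in PNA-21 and by 0.87 ± 0.10 in PNA-10b+21. OSMR, the oncostatin M receptor, fell by 0.45 ± 0.05 and 0.43 ± 0.05 in the same groups, and the transcription factor IRF1 by 0.43 ± 0.10 in each. IL1B moved the other way, with rises of 0.54 ± 0.08 in PNA-10b cells, 0.86 ± 0.08 in PNA-21 and 0.83 ± 0.08 in PNA-10b+21, while its receptor IL1R1 fell by 0.35, 0.31 and 0.28. The list thus moved in mixed directions, and its part in the complement values was not tested.

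CD55 and CD59 share a GPI anchor. Of 25 genes of anchor assembly, 23 were tested, and 0 rose and 1 fell in PNA-10b, 4 rose and 4 fell in PNA-21, and 1 rose and 5 fell in PNA-10b+21. In PNA-10b, 2.75% of all genes rose and 3.74% fell. With 15.2% of all genes up and 14.6% down in PNA-21, the counts in that group are near the background, and in PNA-10b+21 the shares of all genes were 13.6% up and 13.4% down. PIGS, a subunit of the transamidase that attaches the anchor, is 1 gene of this list, which moved in both directions. It fell by 0.25 ± 0.05 (SE) on the log2 scale in PNA-10b, by 0.36 ± 0.05 in PNA-21 and by 0.41 ± 0.05 in PNA-10b+21. These are RNA levels, and protein on the cell surface was not measured.

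Marker genes of other cell types were low or moved with the groups as follows. The 5 hepatocyte markers summed to 0.250 to 0.652 CPM in PNA-10b, 0 to 0.422 in PNA-21, 0.229 to 0.565 in PNA-10b+21 and 0.603 to 1.12 in Control, and none passed the filter. Of 9 microglia and macrophage markers, 6 had a row, 1 was tested, and their sum was 13.5 to 14.5 CPM in PNA-10b, 10.4 to 13.5 in PNA-21, 11.9 to 13.5 in PNA-10b+21 and 17.4 to 18.6 in Control. Most of that sum was CSF1R, at 13.5 ± 0.599 CPM in PNA-10b, 10.6 ± 0.770 in PNA-21, 11.6 ± 0.648 in PNA-10b+21 and 17.4 ± 0.556 in Control (SD, n = 3 each), while CD14 had at most 0.630 CPM in any library. PTPRC, under the filter, had 5 reads in PNA-10b, 49 in PNA-21, 13 in PNA-10b+21 and 8 in Control, and so did not follow CSF1R. The 5 astrocyte markers with a row summed to 62.0 to 72.1 CPM in PNA-10b, 48.4 to 55.7 in PNA-21, 44.5 to 55.3 in PNA-10b+21 and 88.8 to 110 in Control. The 3 endothelial markers summed to 2.77 to 4.42 CPM in PNA-10b, 2.73 to 4.91 in PNA-21, 3.55 to 5.17 in PNA-10b+21 and 4.30 to 6.54 in Control. The 3 neuronal markers summed to 76.2 to 82.4 CPM in PNA-10b, 67.2 to 75.7 in PNA-21, 62.7 to 69.9 in PNA-10b+21 and 78.9 to 88.6 in Control. Nearly all of the neuronal sum was SNAP25, at 60.8 to 86.7 CPM over the 12 libraries. SYP had at most 1.82 CPM and RBFOX3, under the filter, at most 0.625 CPM in any library. The 6 mesenchymal markers summed to 16240 to 18637 CPM in PNA-10b, 15043 to 16302 in PNA-21, 15670 to 17259 in PNA-10b+21 and 19390 to 23725 in Control. The astrocyte and mesenchymal sums were lower in all treated libraries, as were C1R, C1S and C3, and each was carried by 1 gene, SLC1A3 and FN1. Among all tested genes, 3.74% were called lower with sgPNA-10b alone, 14.6% with sgPNA-21 alone and 13.4% with both. Of the 3 tested astrocyte markers, 1 fell with sgPNA-10b alone and all 3 fell in each of the other treated groups. Of the 6 mesenchymal markers, 3 fell in each treated group, and they differed among themselves. In PNA-10b, FN1 (-0.44), CHI3L1 (-0.72) and NES (-0.37) fell on the log2 scale, while CD44 (-0.00436) and VIM (0.02) were not called. In PNA-10b+21, CHI3L1 was at 0.14 and not called. The part of these markers in the complement values was not tested.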

How the data were processed

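mRNA of U87 cells was measured in 12 libraries, 3 in each of the groups PNA-10b, PNA-21, PNA-10b+21 and Control, from a stranded mRNA kit per the labels' protocols. The authors deposited 1 table of whole-number read counts per gene with no normalization. The submitters' processing notes list HISAT2 2.1.0, SAMtools 1.7, HTSeq 0.11.0 and the build hg38. For the annotation release and the strand setting of the counting, the sources used here give nothing.

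Genes were filtered with filterByExpr of edgeR 4.0.16 (R 4.3.3) at a minimum count of 10, which removed 20026 genes and kept 15715, which hold 99.84% of all counts. TMM factors scaled the libraries. A single quasi-likelihood model with group means was fitted to the 12 libraries together, and p-values were Benjamini-Hochberg adjusted over all tested genes within each of 7 comparisons. The common biological coefficient of variation was 0.0518. Standard errors and 95% intervals of log2 fold changes come from this fit. Levels are TMM-scaled CPM, computed here from the counts. Gene coordinates, exon lengths and UTRs are from GENCODE 29 on hg38, which matched 34564 of the 35741 genes by identifier.

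Alternatives were RLE and upper-quartile scaling, no filter, DESeq2 1.42.0, only the 2 groups compared, a replicate block, and leaving out each library. No 2 replicates were alike within sampling noise.

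The complement genes, the gene lists and the tests were chosen with earlier results of these data known. Every chosen gene with a row is described. Other listed genes could be named where called in a comparison with Control, or to state what was near 0, and not all such genes are named. C5, and the marker genes that were not called, were named after their values were seen. A further complement gene was left out and is not reported here. Genes of similar pattern are the 3 nearest to each of the 3 members with the largest called change, among genes whose log2 CPM averaged 1 or more.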

Additional observations from a re-analysis of the deposited data

Results flagged for a closer look

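For 7 complement genes, of 7 tested members and 13 other tested genes, the interaction term was called. The test was the edgeR quasi-likelihood fit with Benjamini-Hochberg adjustment. Of all tested genes, 1.48% had a positive and 1.64% a negative interaction called. An effect of the nanoparticles that all treated groups share cannot be told apart from the interaction. Among the named members the interaction was 0.36 ± 0.09 for C1R (SE, log2, adjusted p = 0.0352), 0.38 ± 0.10 for C1S (adjusted p = 0.0448), 0.33 ± 0.08 for C3 (adjusted p = 0.0302) and -0.44 ± 0.09 for CD55 (adjusted p = 0.0169). Among other complement genes it was 0.47 ± 0.12 for C1RL (adjusted p = 0.0380), 0.88 ± 0.22 for C5AR1 (adjusted p = 0.0356) and 1.07 ± 0.25 for C5AR2 (adjusted p = 0.0294). In each, the change under both sgPNAs was smaller than the sum of the single changes. With DESeq2 the C5AR1 and C5AR2 interactions had no adjusted p. Each of the 7 calls was lost without PNA-10b replicate 2 and without Control replicate 1.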

How the results depend on the processing

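Across 18 alternatives, none of the 24 called log2 fold changes of members turned its direction, 13 kept their call throughout and 11 lost it in at least 1 setting. RLE scaling, DESeq2 and the replicate block changed no call of a member. With the replicate block the counts of called members were 4 for PNA-10b, 5 for PNA-21 and 7 for PNA-10b+21 against Control, 2 in PNA-10b+21 and 2 in PNA-21 against PNA-10b, 0 in PNA-10b+21 against PNA-21, and 4 for the interaction, equal to the counts without it. Of 18 same-number pairs of libraries, 1 had a correlation of deviations over 0.1 (-0.0577 to 0.109). Pairs with different numbers were not compared, so this check cannot tell whether same-number libraries share more than a number. Leaving out each library in turn gave 2 to 4 called members in PNA-10b against Control, 4 to 7 in PNA-10b+21 against Control, 1 to 3 in PNA-10b+21 against PNA-10b and 0 to 4 for the interaction. The causes were not tested, beyond the loss of a sample in each such fit. Leaving out a library leaves 2 in its group. No filter on low counts ended 3 calls and the fit of only the 2 groups compared, which uses 6 of the 12 libraries, ended 2, all for CD46 or CD59. Upper-quartile scaling added 1 call. RLE and upper-quartile scaling moved the median log2 change of all genes by at most 0.0289. Depth limits CFI, and leaves SERPING1 untested.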
